A study of Saccharomyces cerevisiae with 12 samples.

Results

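The shift from glucose to ethanol and glycerol was followed in wild-type budding yeast by comparing 3 libraries from fermentative growth with 3 libraries taken 20 minutes after the change of carbon source. These 6 libraries were chosen by their labels alone, genotype wild-type in either stage, out of 12 in the series, and the remaining 6 came from mrn1D cells, in which *MRN1* is deleted. The strain background was BY4741, a haploid laboratory strain of mating type a that lacks *LEU2*, *MET17* and *URA3* and part of *HIS3*, and both stages carry these deletions. Fermentative cultures were in log phase at an OD600 of 0.6 in YEPD, a rich medium with 2% glucose, and respiratory cultures were then held for 20 minutes in YEPEG, the same kind of rich medium with 2% ethanol and 2% glycerol in place of glucose. Total RNA was extracted from triplicate cultures, ribosomal RNA was depleted, and estimated counts per coding sequence were compared. The respiratory stage is thus an early time point of a change of medium and does not describe cells grown on ethanol and glycerol, and no culture was moved into fresh glucose medium to show the part of the handling.

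Budding yeast given glucose ferments it to ethanol even with oxygen present, and it keeps genes for other carbon sources, for respiration and for energy reserves at low levels, a state called glucose repression. When glucose runs out, the kinase Snf1 becomes active, the repressor Mig1 leaves the nucleus, protein kinase A activity drops and the stress activators Msn2 and Msn4 enter the nucleus. Ribosome production, the largest expense of a fast-growing cell, is cut back at the same time. Ethanol enters metabolism through acetaldehyde, acetate and acetyl-CoA, and glycerol through glycerol 3-phosphate and dihydroxyacetone phosphate, and both are burned in the mitochondria or turned into sugar by gluconeogenesis.

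The wild-type libraries held between 16231559 and 26542199 estimated counts, which puts the value of 3 counts at 0.113 to 0.185 CPM. This floor accounts for counting error alone. CPM are counts per 1000000 of a library after scaling by edgeR's TMM factors. Libraries of a stage correlated at 0.980 or more in log CPM and libraries of different stages at 0.863 or less. Fermentative replicate 1 differed somewhat from the rest of its stage. On the second axis of a principal component analysis (5.04% of the variance) it lay at 18.8, and fermentative replicates 2 and 3 at -12.6 and -7.01. The labelled cell type was checked with its markers. *STE2*, the receptor for alpha factor that only a cells make, measured 162, 156 and 151 CPM before the shift and 84.0, 78.7 and 93.8 CPM after it, whereas *MF(ALPHA)1*, which encodes alpha factor, measured 0.262, 0.124 and 0.491 CPM and 0.228, 1.26 and 0.331 CPM. *LEU2*, *MET17* and *URA3* each measured at most 0.471 CPM in all 6 libraries, and *HIS3*, of which the his3 deletion of BY4741 leaves a part, measured 57.9, 59.1 and 54.7 CPM before the shift and 17.1, 22.0 and 19.5 CPM after it.

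Most genes changed. Of 5917 coding sequences, 5801 passed the filter on low counts and were tested with edgeR's quasi-likelihood test, with p-values adjusted over all of them by the Benjamini-Hochberg method. At an adjusted p under 0.05, 2238 genes were higher after the shift (38.6% of those tested) and 2112 were lower (36.4%). Of these called genes, 880 had an estimated rise of at least 2-fold (15.2% of those tested) and 867 a fall of at least 2-fold (14.9%). That test was against no change. A stricter test, against a 2-fold change itself, called 627 genes higher and 637 lower. Large rises were more common than large falls, with 104 genes at least 8-fold higher and 22 at least 8-fold lower. The median log2 fold change over all tested genes was 0.03. All values are relative to the rest of each library, and in such bulk RNA a drop of RNA per cell across most genes cannot be told apart from no change, nor fewer cells expressing a gene from less RNA per cell.

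The stages did not overlap in 4516 genes (77.8% of those tested). The 10 genes with the largest rise among those that passed the test, did not overlap and averaged at least 10 CPM all serve carbon metabolism or its control, as far as a function is known. *RGI2*, a gene of unknown molecular function needed for growth by respiration, had the largest log2 fold change. It measured 1.91, 1.73 and 1.96 CPM before the shift and 236, 241 and 227 CPM after it, a rise of 126-fold (log2 fold change 6.98, standard error 0.10, adjusted p = 9.1e-10 in edgeR's test). *HXT7* and *HXT6*, which encode nearly identical high-affinity glucose transporters, followed at 6.81 and 6.20, but their reads cannot be assigned to one or the other with certainty. Next came *POX1*, the acyl-CoA oxidase of peroxisomal beta-oxidation, at 9.66, 9.19 and 11.5 CPM before and 638, 782 and 724 CPM after the shift. *YGR067C*, an uncharacterised gene with zinc finger motifs, rose by 5.80 on the log2 scale, from 4.83, 6.14 and 4.66 CPM to 295, 297 and 283 CPM. Glycogen enzymes were prominent, since *GPH1*, glycogen phosphorylase, went from 27.2, 36.6 and 40.3 to 2078, 1952 and 1724 CPM and *GSY1*, a glycogen synthase, from 24.5, 30.9 and 34.6 to 1648, 1576 and 1402 CPM. The same 10 held *MPC3* (log2 fold change 5.78), a subunit of the mitochondrial pyruvate carrier used in respiring cells, *HXK1* (5.58), a hexokinase, and *ADY2* (5.57), an acetate transporter. In each of these 10 genes the lowest respiratory library measured at least 35.9 times the highest fermentative library.

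**Figure D1:**
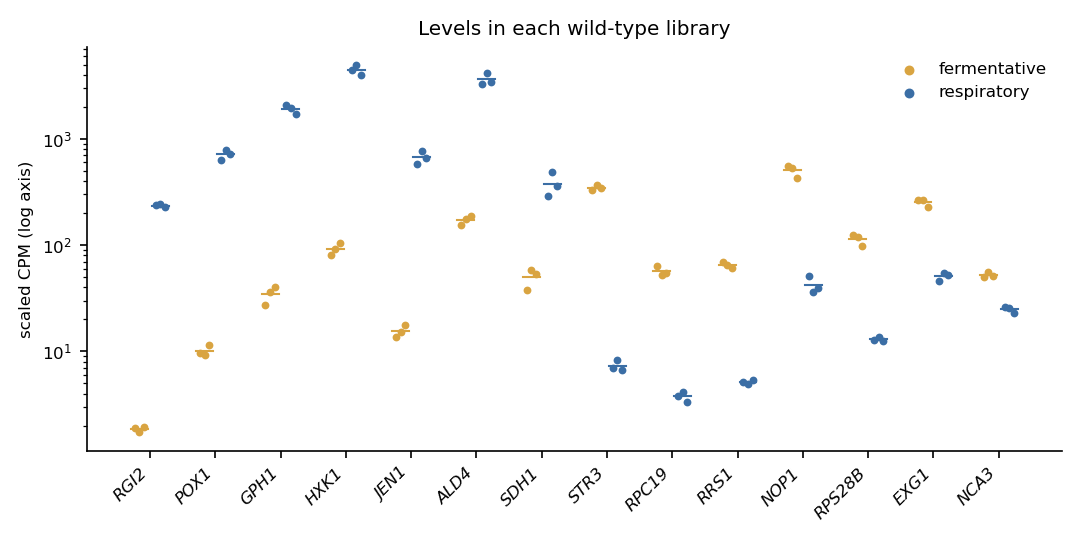
Scaled CPM on a log axis for 14 genes in each of the 6 wild-type libraries, with a point per library and a line at the mean of each stage. The 7 genes on the left, *RGI2* to *SDH1*, lie higher in all 3 respiratory libraries, and the 7 on the right, *STR3* to *NCA3*, lie lower in all 3.

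Genes for the new carbon sources rose strongly. Of the 12 genes for ethanol and acetate use, 9 rose and 2 fell (against 38.6% and 36.4% of all genes tested), with a median log2 fold change of 2.52. Besides *ADY2*, *ATO2*, a second gene of that transporter family, rose by 4.14. *ACS1*, the acetyl-CoA synthetase of glucose-poor growth, measured 14.4, 14.5 and 12.5 CPM before and 322, 393 and 285 CPM after the shift (log2 fold change 4.59, standard error 0.14). Its paralog *ACS2*, which works during growth on glucose, fell slightly (-0.32). *ALD4*, the main mitochondrial aldehyde dehydrogenase, rose by 4.39 on the log2 scale, from 155, 176 and 189 CPM to 3289.8, 4199.9 and 3396 CPM. *ADH2*, the alcohol dehydrogenase that oxidises ethanol, rose by 3.53, though its reads are partly shared with other alcohol dehydrogenase genes. *ALD5* was the other member that fell (-1.06).

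Glycerol genes moved the same way, with 10 of 12 higher (83.3%) and 1 lower (8.33%), against 38.6% and 36.4% of all genes. *GUT1*, the glycerol kinase, measured 46.5, 59.8 and 54.1 CPM before and 294, 346 and 295 CPM after the shift, and *GUT2*, the mitochondrial glycerol 3-phosphate dehydrogenase that follows it, measured 35.3, 48.2 and 43.9 CPM and 389.5, 482 and 384 CPM. For both genes all 3 respiratory libraries lay far above all 3 fermentative libraries. Other genes of the list rose as well, among them *GPD1* (2.21), the first enzyme of glycerol synthesis, and *DAK2* (3.43), a dihydroxyacetone kinase. *GPP1*, one of 2 glycerol 3-phosphatases, fell (-0.97) while the other, *GPP2*, rose (1.20). *STL1*, the glycerol importer, reached only 19.2, 32.0 and 27.1 CPM from 9.78, 9.43 and 12.6 CPM.

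Lactate is not named among the carbon sources of either medium. Of its 5 genes, 3 rose (60%) and 2 fell (40%), against 38.6% and 36.4% of all genes. *JEN1*, the lactate and pyruvate importer, measured 13.6, 15.3 and 17.7 CPM before and 579, 761 and 666 CPM after the shift, *CYB2*, a lactate dehydrogenase of the mitochondrial intermembrane space, rose by 2.84, and *DLD1*, the D-lactate dehydrogenase, by 1.57. *DLD3*, a cytosolic enzyme of the same family, fell (-1.89), as did *DLD2* (-0.26), though not without respiratory replicate 1 (adjusted p = 0.063 in edgeR's test) or with library totals in place of TMM scaling (0.0893).

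Fatty acid oxidation and carnitine transport was among the lists with the largest median, 2.60, with 20 of 23 genes higher (87%, against 38.6% of all genes). In yeast this pathway runs in peroxisomes, and its acetyl-CoA reaches mitochondria as acetylcarnitine. The 3 core enzymes rose together, *POX1* (6.15), the multifunctional enzyme *FOX2* (5.41) and the thiolase *POT1* (5.52). *FOX2* and *POT1* measured 19.1, 18.6 and 19.3 CPM and 6.11, 8.24 and 7.42 CPM before the shift and 742, 862 and 818 CPM and 277, 406 and 312 CPM after it. Peroxisomal catalase *CTA1* (2.91), the fatty acid importer subunits *PXA1* (2.60) and *PXA2* (3.11), and the carnitine genes *CRC1* (2.97) and *CAT2* (2.96) rose as well. The transcription factors of the oleate response rose less, *PIP2* by 1.49 and *OAF1* by 0.79. Against these, *FAA3* (-1.27), *FAA4* (-0.91), both long-chain acyl-CoA synthetases that share reads with similar genes, and *ANT1* (-0.40), the peroxisomal adenine nucleotide carrier, fell.

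The enzymes that define gluconeogenesis had risen much less at 20 minutes. *FBP1*, fructose-1,6-bisphosphatase, measured 6.48, 6.84 and 7.42 CPM before and 14.9, 18.5 and 19.4 CPM after the shift (log2 fold change 1.35, standard error 0.14), and *PCK1*, phosphoenolpyruvate carboxykinase, 8.73, 8.28 and 9.93 CPM and 15.3, 18.7 and 19.5 CPM (0.99, standard error 0.14). Of the glyoxylate cycle, which builds sugar precursors from acetyl-CoA, isocitrate lyase *ICL1* rose by 1.45 and malate dehydrogenase *MDH2* by 2.25. Malate synthase *MLS1* measured 7.04, 8.61 and 9.63 CPM before and 7.70, 11.7 and 9.64 CPM after the shift, values that overlap between stages (log2 fold change 0.20, adjusted p = 0.35 in edgeR's test). The succinate-fumarate carrier *SFC1* (-0.51) and the cytosolic isocitrate dehydrogenase *IDP2* (-0.15) did not pass the test either. In all, 10 of the 16 genes of the list were higher (62.5%), 2 lower (12.5%) and 4 not called. Over all genes, 38.6% were higher and 36.4% lower. The 2 with the largest rise in the list, *RGI2* and *RGI1* (5.33), are respiratory growth genes with no known enzymatic step. *MAE1*, mitochondrial malic enzyme, fell (-1.14).

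Although the new medium has no glucose by its labels, genes for taking up and phosphorylating hexoses were among those that rose most. Whether cells were washed before the change of medium, and so how much glucose was carried over, is not given for these cultures in the sources used here. Of 16 tested hexose transporter genes, 12 rose (75%) and 1 fell (6.25%), against 38.6% and 36.4% of all genes. Reads are shared with similar genes in 13 of the 16. Transporters of high or intermediate affinity rose, *HXT4* by 4.76, *HXT2* by 3.53 and *HXT5* by 3.0, while the low-affinity *HXT1* fell slightly (-0.36) and *HXT3* rose by 0.58. Together, hexose transporter genes took 0.181%, 0.183% and 0.186% before the shift and 1.81%, 1.65% and 1.63% after it, as a percent of each library's counts. All 4 hexose kinase genes rose, in the order *HXK1* (5.58), glucokinase *GLK1* (3.74), its paralog *EMI2* (3.23) and *HXK2* (0.63), the kinase that predominates on glucose. Glucose sensing genes rose in 11 of 20 cases (55%) and fell in 3 (15%), against 38.6% and 36.4% of all genes. *SNF3*, the high-affinity glucose sensor, rose by 2.21 whereas *RGT2*, its low-affinity relative, did not pass (0.07). *MTH1*, a corepressor of hexose transporter genes, rose by 3.45 and its paralog *STD1* fell (-1.02). Of the catalytic subunits of protein kinase A, *TPK2* rose (2.02) and *TPK3* fell (-1.5).

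Glycolysis had a median log2 fold change of -0.02 over 19 genes, of which 7 rose (36.8%) and 3 fell (15.8%). Over all genes tested, 38.6% rose and 36.4% fell. The abundant enzymes, *PGK1* (-0.02), *FBA1* (-0.21), *TPI1* (-0.18), *GPM1* (-0.13) and *CDC19* (0.09), did not pass the test, and the list's share of all counts was 9.59 ± 0.533% to 9.74 ± 0.94% (mean ± SD, n = 3), with the stages overlapping. The genes that rose were minor isoforms and the enzymes of fructose 2,6-bisphosphate. *ENO1*, an enolase, rose by 3.50 while *ENO2* did not pass (-0.28), the pyruvate kinase *PYK2* rose by 3.30, the glyceraldehyde-3-phosphate dehydrogenase *TDH1* by 3.20 while *TDH2* (0.32) and *TDH3* (-0.12) did not pass, and *GPM2* rose by 3.04. The regulatory enzymes *PFK26* (1.57) and *FBP26* (1.90), which make and remove fructose 2,6-bisphosphate, both rose. Fermentation genes were split evenly, 4 higher and 4 lower of 10 (40% each), about the shares called over all genes. Alcohol dehydrogenase *ADH1* (0.05) did not pass. Pyruvate decarboxylase *PDC1* (-0.31) did not pass in edgeR's test but was called lower in DESeq2 (adjusted p = 0.00921) and under both other scalings (0.0389 and 0.0373).

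TPM, which adjusts for length and so allows levels to be compared between genes of a library, showed how far the minor isoforms came. The authors' TPM values sum to a fixed total and lack the TMM scaling behind the fold changes. *HXK1* measured 54.2, 65.4 and 77.3 TPM before and 3722, 4192 and 3593 TPM after the shift, against 1201, 1393 and 1365 and 2205, 2831 and 2500.4 TPM for *HXK2*. It thus lay below *HXK2* in all 3 fermentative libraries and above it in all 3 respiratory libraries. *CYC7*, the second isoform of cytochrome c, went from 5.78, 4.88 and 5.48 to 138, 99.5 and 113 TPM and passed *CYC1*, which measured 78.6, 83.6 and 78.6 and 28.2, 53.1 and 52.5 TPM. *COX5B*, the isoform of a cytochrome c oxidase subunit known from oxygen-poor growth, went from 45.4, 36.8 and 45 to 238, 215 and 214 TPM and passed *COX5A* (101, 111 and 104 and 144, 205 and 187 TPM). *ACS1* reached 184, 226 and 174 TPM beside 189, 197 and 198 TPM for *ACS2*, so that the pair overlapped after the shift. In other pairs the minor isoform stayed below. *ENO1* reached 4363, 6086 and 4580.0 TPM beside 14593, 17227 and 14154 TPM for *ENO2*, *PYK2* reached 300.5, 278 and 281 TPM beside 11192, 12693 and 10871 TPM for *CDC19*, and *ADH2* reached 188, 298 and 226 TPM beside 13176, 15361 and 13245 TPM for *ADH1*. *ENO1* and *ADH2* share reads with their paralogs. A similar step was seen in translation, where *HEF3*, a second gene for elongation factor 3, rose by 1.83 as *YEF3*, with which it shares reads, fell (-1.26), and *DBP1*, paralog of the helicase gene *DED1*, rose by 1.81 while *DED1* did not pass (-0.04).

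**Figure D2:**
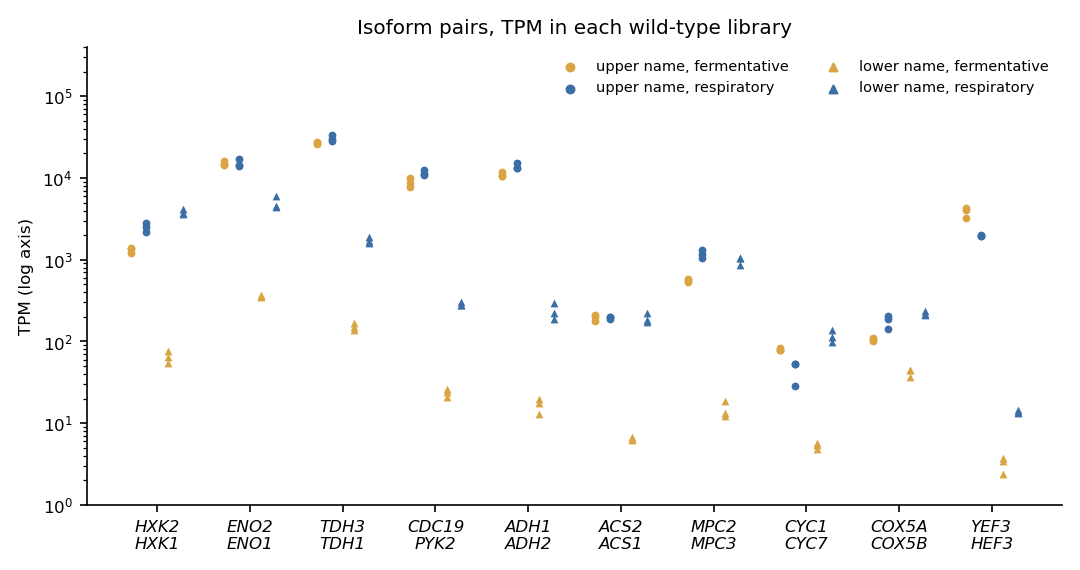
TPM on a log axis for 10 pairs of genes of like function in each of the 6 wild-type libraries, circles for the upper name and triangles for the lower. *HXK1*, *CYC7* and *COX5B* lie below their partners in all 3 fermentative libraries and above them in all 3 respiratory libraries, while *ENO1*, *TDH1*, *PYK2*, *ADH2* and *HEF3* rise but stay below.

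Genes for other sugars, none of them present in either medium by the labels, also rose, with a median of 1.64. Of 23, 18 were higher (78.3%) and 1 lower (4.35%), against 38.6% and 36.4% of all genes. *SUC2*, which encodes invertase and is a standard target of glucose repression, measured 66.0, 71.7 and 69.6 CPM before and 1352, 1269 and 1130.5 CPM after the shift (log2 fold change 4.18, standard error 0.11). The maltose genes *MAL11* (3.30) and *MAL31* (3.17), which encode transporters, and the galactose genes *GAL7* (2.11) and *GAL10* (1.90) rose, while *GAL80*, the repressor of the galactose genes, did not pass (0.05). *PGM2* and *PGM1* encode phosphoglucomutases, and *PGM2* rose by 4.79 as *PGM1* fell (-0.45).

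Nuclear genes of the respiratory chain rose in 25 of 28 cases (89.3%, against 38.6% of all genes), with a median of 1.15. All 4 subunits of succinate dehydrogenase were among them, *SDH1* (2.92), *SDH2* (1.94), *SDH3* (1.15) and *SDH4* (2.10). *SDH1* measured 38.0, 58.5 and 53.0 CPM before and 289.8, 485 and 358 CPM after the shift. Cytochrome bc1 subunits rose too, from 1.01 for *QCR7* to 2.36 for *CYT1*, cytochrome c1. The internal NADH dehydrogenase *NDI1* rose by 2.65. *COX26*, a small protein of the chain's supercomplexes, had the largest value of the list (4.73), at 0.262, 0.371 and 0.429 CPM before and 8.11, 10.4 and 9.47 CPM after the shift. Its values before the shift lie close to the 3-count floor, so the size of this rise is uncertain. *CYC1*, the main cytochrome c gene, was the only member that fell (-1.16, standard error 0.20, adjusted p = 0.0007 in edgeR's test), at 23.4, 23.7 and 21.1 CPM before and 6.65, 12.4 and 11.5 CPM after the shift. *COX8* (0.20) and *COX9* (-0.05) did not pass.

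ATP synthase genes rose less, 17 of 29 (58.6%) with 3 lower (10.3%) and a median of 0.34, against 38.6% and 36.4% of all genes. The catalytic subunits *ATP1* (0.61) and *ATP2* (0.52) rose modestly. The largest rises of the list were those of *STF2* (2.99), *STF1* (2.11) and *INH1* (1.6), of which *INH1* and *STF1* encode inhibitors of the enzyme's ATP hydrolysis. *ATP19* (-0.69), *ATP23* (-0.66) and *NCA3* (-1.07) fell. *ATP1* missed the threshold without fermentative replicate 1 or 3 or respiratory replicate 2 (edgeR's adjusted p between 0.0598 and 0.108), and *ATP23* without fermentative replicate 1 or any of the respiratory replicates (0.0587 to 0.104).

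In the tricarboxylic acid cycle 13 of 19 genes rose (68.4%) and 4 fell (21.1%), against 38.6% and 36.4% of all genes. Citrate synthase *CIT1* rose by 2.11 and *CIT3* by 2.48, but the aconitase gene *ACO1* fell (-0.51), and *IDH1* (-0.31) and *IDP1* (-0.55), isocitrate dehydrogenases, fell too. Among pyruvate genes, *MPC3* stood far above the rest at 5.78, *MPC1*, the partner common to both forms of the carrier, rose by 1.25, and the pyruvate dehydrogenase kinase *PKP1* by 1.38, while the enzyme's own subunits *PDA1* (-0.17) and *LAT1* (-0.04) did not pass and *PDB1* fell (-0.33).

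Other mitochondrial groups did not show this rise. None of the 7 tested protein-coding genes of the mitochondrial genome was called in either direction by edgeR or DESeq2. *COX2* alone had an unadjusted p under 0.05 in each tool, with adjusted values of 0.0514 in edgeR and 0.0535 in DESeq2, and it passed without respiratory replicate 1 (adjusted p = 0.0203 in edgeR's test). Their values ran from -0.18 for *VAR1*, a ribosomal protein, to 0.31 for *COX2*, and *COB*, cytochrome b, measured 233, 222 and 318 CPM before and 229, 261 and 381 CPM after the shift, with stages that overlap and with reads shared with the maturase frames in its introns. Mitochondrial ribosomal proteins had fewer calls than all genes, of which 38.6% were higher and 36.4% lower. Of 78, 25 were higher (32.1%) and 16 lower (20.5%), with a median of 0.07 and a range of -0.80 to 1.32. That median had an SD of 0.19 over the libraries. Their share of counts was 0.297%, 0.208% and 0.238% before the shift and 0.306%, 0.265% and 0.284% after it. The stages thus overlapped only through fermentative replicate 1. Import genes mostly fell, 25 of 37 (67.6%, against 36.4% of all genes) with 4 higher (10.8%, against 38.6%). Those that fell included the membrane translocase subunits *TIM17* (-1.52) and *TOM7* (-1.33) and *TIM10* (-1.36), a carrier of proteins between the membranes. *MIA40* (0.70), the import receptor of the intermembrane space, rose. *TIM17* missed the threshold without any 1 of the 3 respiratory replicates (adjusted p of 0.0594 to 0.0976 in edgeR's test).

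Reserve carbohydrate genes had the largest median of the lists apart from the 4 hexose kinases, 2.73. Of 26, 25 were higher (96.2%, against 38.6% of all genes) and only *PGM1* was lower. Synthesis and breakdown rose together. On the glycogen side *GSY1* (5.69) and *GSY2* (4.08), both synthases, the branching enzyme *GLC3* (4.38) and the phosphatase subunit *GAC1* (3.94) rose beside *GPH1* (5.79) and the debranching enzyme *GDB1* (3.23). On the trehalose side the synthase subunits *TPS1* (2.05), *TPS2* (3.53) and *TSL1* (2.75) rose beside the trehalases *NTH1* (1.42), *NTH2* (1.90) and *ATH1* (2.61). Their share of all counts went from 0.238 ± 0.0264% to 1.99 ± 0.0729% (SD, n = 3). That of the general stress list, which has several genes in common with it, went from 0.353 ± 0.0181% to 1.63 ± 0.056%.

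General stress genes of the kind controlled by Msn2 and Msn4 rose in 39 of 42 cases (92.9%, against 38.6% of all genes), with a median of 2.30. *HSP12*, a small membrane-stabilising protein, measured 49.1, 86.7 and 64.1 CPM before and 873, 694 and 579.6 CPM after the shift, and *CTT1*, cytosolic catalase, 23.9, 31.9 and 28.9 CPM and 325, 293 and 272 CPM. *GRE2* (-0.26), a methylglyoxal reductase, and *PAI3* (-1.41), an inhibitor of proteinase A, fell, but *GRE2* missed the threshold without any 1 of 5 of the 6 libraries, all but respiratory replicate 2 (adjusted p of 0.0553 to 0.168 in edgeR's test), and with library totals in place of TMM scaling (0.113). Chaperones did not move as a group. Of 33 tested heat shock genes 10 rose (30.3%) and 14 fell (42.4%), against 38.6% and 36.4% of all genes, with a median of -0.07. The disaggregase *HSP104* (1.24) and the small heat shock proteins *HSP26* (2.36) and *HSP42* (1.19) rose, but *SSB1* (-0.98) and *SSB2* (-1.11), which bind nascent chains on ribosomes and share reads, and *YDJ1* (-1.51), a cochaperone of Hsp70, fell. Paralogs moved in opposite directions, *HSP82* up (0.74) and *HSC82* down (-0.73), *SSA1* up (0.92) and *SSA2* down (-0.76), though each pair shares reads.

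Oxidative stress genes fell in 18 of 32 cases (56.2%) and rose in 10 (31.2%), against 36.4% and 38.6% of all genes, with a median of -0.36. Both catalases, *CTT1* and *CTA1*, and the glutathione peroxidase *GPX1* (2.83) rose, and the methionine sulfoxide reductase *MXR1* (-2.90), the peroxidase *GPX2* (-1.89), sulfiredoxin *SRX1* (-1.5) and thioredoxin reductase *TRR1* (-0.91) fell. *SOD1*, the cytosolic superoxide dismutase, did not pass (-0.02).

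Autophagy genes rose in 30 of 38 cases (78.9%) with 2 lower (5.26%), against 38.6% and 36.4% of all genes. *ATG8*, whose product is attached to lipid on the growing autophagosome membrane, measured 3.30, 3.62 and 3.13 CPM before and 18.4, 19.4 and 19.5 CPM after the shift (2.50 on the log2 scale), and the vacuolar proteinases *PRB1* (1.74) and *PEP4* (1.02) rose. *ATG1*, the kinase that starts the process, fell (-0.46), as did *ATG27* (-0.45), and *ATG32*, the receptor for mitochondria, did not pass (0.10). Nitrogen genes rose in 21 of 38 cases (55.3%) and fell in 9 (23.7%), in all about the share called over all genes. The proline permease *PUT4* rose by 4.52 and proline oxidase *PUT1* by 2.43, together with the 4-aminobutyrate genes *UGA1* (2.12) and *UGA2* (1.6), while the methionine permease *MUP1* (-2.40) and the branched-chain permease *BAP3* (-1.39) fell. Proteasome genes had a median of -0.02, with 8 higher and 4 lower of 38, fewer calls than over all genes. Their activator *RPN4* did not pass (-0.10).

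Regulators of glucose repression and derepression rose in 29 of 44 cases (65.9%) and fell in 6 (13.6%), against 38.6% and 36.4% of all genes. *USV1*, a zinc finger regulator of growth on non-fermentable carbon sources, measured 6.78, 7.21 and 8.28 CPM before and 201, 189 and 177 CPM after the shift, the largest rise of the list (4.68). *CAT8*, the activator of gluconeogenic genes, measured 24.8, 40.1 and 39.9 CPM and 364, 384 and 399 CPM, and *HAP4*, the activating subunit of the complex that drives respiratory genes, 28.6, 39.8 and 42.9 CPM and 301, 231 and 239.7 CPM. *ADR1*, the activator of *ADH2* and of beta-oxidation genes, rose by 1.80, and *XBP1*, a stress-induced repressor, by 3.55. Repressors that act in the presence of glucose rose as well, *MIG1* by 2.24 and *MIG2* by 1.89. *MSN4* rose by 2.86 whereas its paralog *MSN2* did not pass (-0.18). *SIP4*, an activator related to Cat8, fell (-1.04), as did *NRG2* (-1.13), a repressor, and *TUP1* (-0.62), a general corepressor whose partner *CYC8* rose (0.92).

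**Figure D3:**
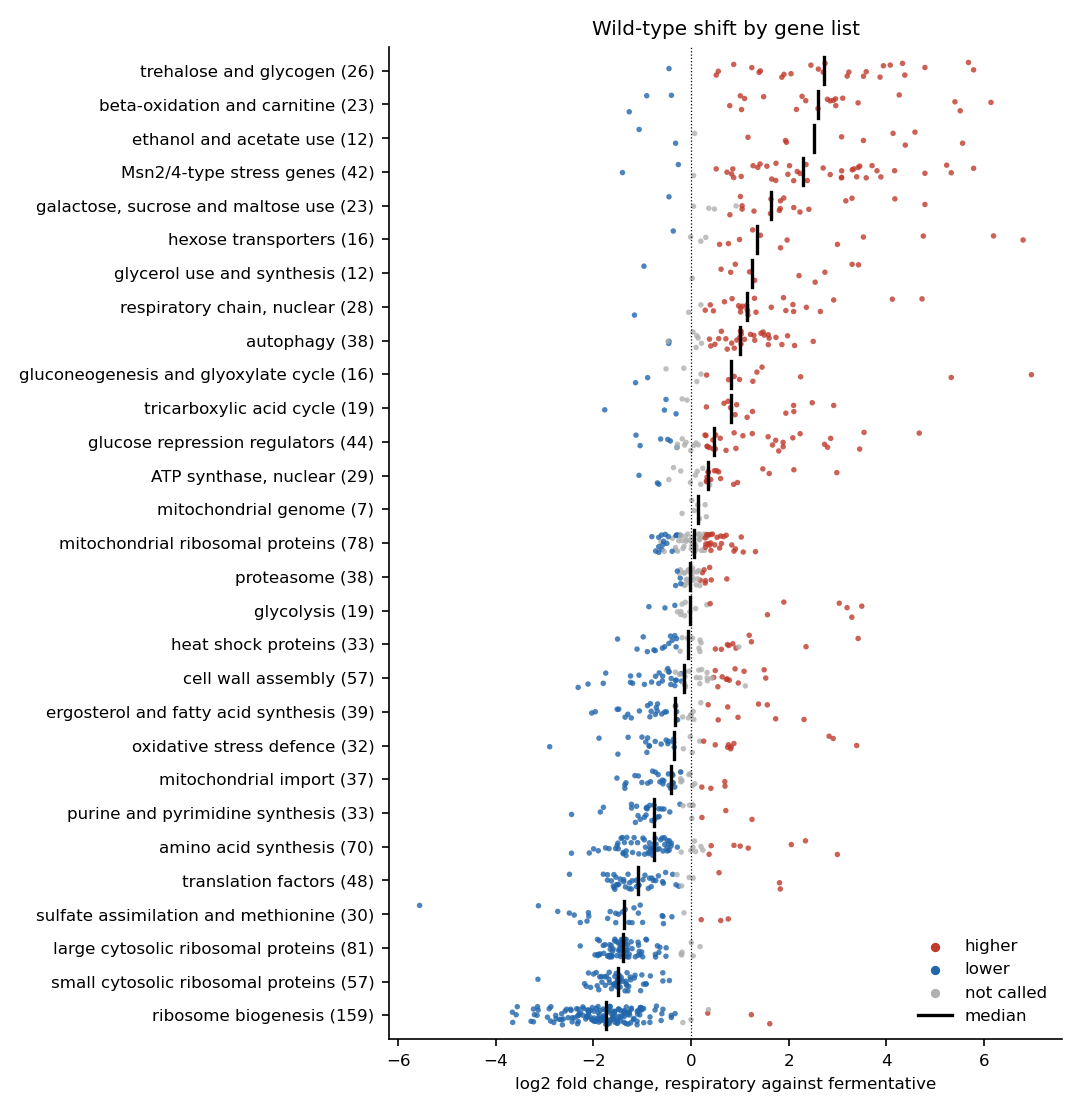
Log2 fold change of each tested gene in 29 gene lists, with the number of tested genes in parentheses, red for genes higher after the shift, blue for lower, grey for not called, and a black line at the median. Medians run from -1.75 for ribosome biogenesis to 2.73 for trehalose and glycogen, and lists of energy reserves and alternative carbon sources lie opposite to those of ribosomes and biosynthesis.

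Among genes that fell, ribosome production stood out. The gene with the most negative value was *STR3*, a cystathionine beta-lyase of methionine synthesis, at 328, 368 and 347 CPM before and 7.06, 8.32 and 6.70 CPM after the shift, a 47.3-fold drop (log2 fold change -5.56, standard error 0.11, adjusted p = 5e-09 in edgeR's test). Of the other 9 most negative genes, 7 serve RNA polymerase, ribosome assembly or nuclear RNA processing. *RPC19* (-3.91), a subunit common to RNA polymerases I and III, measured 63.2, 52.6 and 55.1 CPM and 3.83, 4.19 and 3.35 CPM, and *RPA12* (-3.86), a subunit of RNA polymerase I, 41.0, 37.6 and 34.2 CPM and 2.23, 2.46 and 3.02 CPM. *RRS1*, needed to assemble the large subunit, measured 69.5, 64.7 and 61.4 CPM before and 5.15, 4.92 and 5.42 CPM after, and *NOP1*, the fibrillarin that methylates ribosomal RNA, 554, 536 and 432 CPM and 50.9, 36.4 and 39.4 CPM. *ALB1* (-3.66), a factor bound to the exported large subunit, *NSR1* (-3.28), nucleolin, and *AIR1* (-3.56), part of a nuclear RNA surveillance complex, complete this group. The remaining 2 were *FRM2* (-3.82), a nitroreductase, and *YLR264C-A* (-3.37). *YLR264C-A* has no assigned function and lies on chromosome XII, 673828 to 673944, on the strand opposite to *RPS28B*, at 673131 to 673334, which fell by a similar amount (-3.14). Because the strand setting of the counting is not given in the sources used here, reads of the neighbours cannot be assigned with certainty.

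Ribosome biogenesis factors fell in 153 of 159 cases (96.2%, against 36.4% of all genes), of which 141 fell at least 2-fold (against 14.9% of all genes), with a median of -1.75 and a range of -3.66 to 1.61. The 3 that rose were *DOT6* (1.61) and *STB3* (1.24), which encode repressors of ribosome biogenesis genes, and *ESF1* (0.34), which missed the threshold without fermentative replicate 3 (adjusted p = 0.0599 in edgeR's test). *TOD6*, the paralog of *DOT6*, fell (-1.37). *SFP1* (0.36) and *FHL1* (-0.17), activators of ribosomal genes, did not pass, but the coactivator *IFH1* fell (-2.20). All 20 subunits listed for RNA polymerases I and III fell, 19 of them at least 2-fold, with a median of -1.81. Their initiation factors moved less, 6 higher (37.5%) and 3 lower (18.8%) of 16, against 38.6% and 36.4% of all genes. *MAF1*, the repressor of RNA polymerase III, rose by 1.17. *RRN3*, the initiation factor whose binding licenses RNA polymerase I, fell (-1.71).

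Cytosolic ribosomal proteins fell in 132 of 138 cases (95.7%, against 36.4% of all genes) with none higher, and 115 fell at least 2-fold. Small-subunit genes had a median of -1.5, with all 57 lower, and large-subunit genes a median of -1.39, with 75 of 81 lower. Of the small-subunit genes, 56 lay between -2.18 (*RPS11A*) and -0.44 (*ASC1*), and *RPS28B* alone fell further, at 126, 120.2 and 97.7 CPM before and 12.9, 13.7 and 12.5 CPM after the shift. The 6 large-subunit genes not called were *RPL3* (0.00), *RPL4A* (0.18), *RPL4B* (-0.20), *RPL15B* (0.05), *RPL41B* (-0.18) and *RPP0* (-0.19), the base of the ribosomal stalk. In 107 of the 138 genes reads are shared with a similar gene, mostly the second copy. Without those genes the median was -1.28 in place of -1.43. Translation factors fell in 41 of 48 cases (85.4%), led by *SUI1* (-2.49), the factor eIF1, and *NIP1* (-1.80), a subunit of eIF3. The 3 that rose were *HEF3*, *DBP1* and *EAP1* (0.57), a repressor that binds the cap-binding protein eIF4E.

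In the libraries as a whole, ribosomal protein genes took 16%, 14.3% and 14.1% before the shift and 7.12%, 7.26% and 7.03% after it. The stages did not overlap, and the difference had an exact two-sided permutation p = 0.1, the smallest that 3 libraries against 3 allow. Ribosome biogenesis went from 2.24 ± 0.0262% to 0.8 ± 0.0379% and translation factors from 7.81 ± 0.236% to 4.90 ± 0.173%, while the hexose kinases went from 0.228 ± 0.00431% to 1.17 ± 0.12% (SD, n = 3, exact p = 0.1 for each). Nuclear respiratory chain genes went from 0.0948 ± 0.00457% to 0.271 ± 0.0512%, a small share in both stages. Shares add up to a fixed total, so that a rise in some lists lowers the others.

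**Figure D4:**
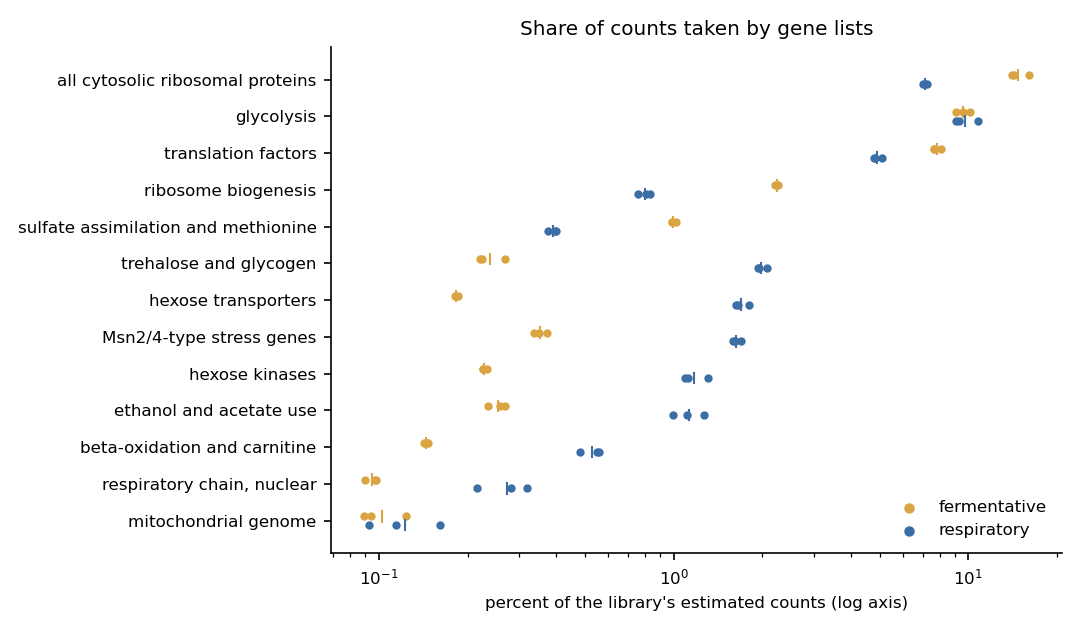
Percent of each library's estimated counts taken by 13 gene lists, on a log axis, with a point per library and a line at the mean of each stage. Ribosomal proteins, translation factors, ribosome biogenesis and sulfur genes lie lower in all 3 respiratory libraries, glycolysis and the mitochondrial genome overlap, and the other 7 lists lie higher.

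Genes for the biosynthesis of small molecules fell as well. Amino acid synthesis genes were lower in 54 of 70 cases (77.1%, against 36.4% of all genes) and higher in 8 (11.4%, against 38.6%), with a median of -0.77. *ILV5* (-2.45), of branched-chain synthesis, *SER2* (-2.09), of serine synthesis, and *LYS20* (-2.0), of lysine synthesis and sharing reads with its paralog, were among the lowest. Those that rose included enzymes at the border of synthesis and breakdown, *ARO9* (3.0) and *ARO10* (2.35), of aromatic amino acid breakdown, and the glutamate dehydrogenase *GDH2* (2.05). *GCN4*, the activator of amino acid synthesis genes, did not pass (-0.29). Sulfate assimilation and methionine genes fell in 26 of 30 cases (86.7%) with 3 higher (10%) and a median of -1.38. *MET14*, adenylylsulfate kinase, measured 173, 122 and 135 CPM before and 16.8, 15.7 and 16.7 CPM after the shift, and *MET1* (-2.73), *MET28* (-2.49) and the S-adenosylmethionine permease *SAM3* (-2.27) fell, while the sulfate permease *SUL1* (0.61), the cystathionine gamma-synthase *STR2* (0.76) and the activator *MET4* (0.21) rose. *MET4* missed the threshold in DESeq2 (adjusted p = 0.132), under upper-quartile scaling (0.0618), under both other filters (0.0532 and 0.075) and without any 1 of 5 of the 6 libraries, all but fermentative replicate 2 (0.0889 to 0.198 in edgeR's test). *STR2* and *STR3* encode the successive steps that pass sulfur from cysteine to homocysteine, and they moved in opposite directions.

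Purine and pyrimidine synthesis fell in 25 of 33 cases (75.8%, against 36.4% of all genes), with CTP synthase *URA7* the lowest (-2.45) and its minor paralog *URA8* higher (1.25). The list of ergosterol and fatty acid genes also holds genes of inositol and phospholipid synthesis. Of its 39 genes, 24 fell (61.5%) and 8 rose (20.5%), against 36.4% and 38.6% of all genes. The fatty acid elongases *ELO2* (-1.96) and *ELO3* (-2.04) and the sterol enzymes *IDI1* (-1.51), *ERG25* (-1.48) and *ERG1* (-1.35) fell. The members with the largest rise were *INO1*, inositol phosphate synthase (2.32), *OPI3*, a phospholipid methyltransferase (1.73), *INO4*, an activator of phospholipid genes (1.56), and *CHO1*, phosphatidylserine synthase (1.38).

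Short promoter motifs were unevenly spread over the genes that rose and fell. Each nuclear gene's window of 250 bases before to 50 after its start codon was read from the R64 sequence of RefSeq, whose yeast gene models begin at the start codon, and was searched on both strands. PAC (GATGAG) is the element bound by Dot6 and Tod6, and STRE (AGGGG) the one bound by Msn2 and Msn4. PAC occurred in 20.5% of 5891 windows, in 41.6% of the genes at least 2-fold lower and in 13.6% of those at least 2-fold higher. STRE occurred in 21.4%, 12.1% and 41.2%, the reverse order. By list, PAC was found in 138 of 159 (86.8%) ribosome biogenesis genes and 22 of 36 (61.1%) genes of RNA polymerases I and III, and STRE in 29 of 42 (69.0%) general stress genes, 14 of 26 (53.8%) reserve carbohydrate genes and 15 of 28 (53.6%) respiratory chain genes. The median log2 fold change was -0.44 for the 947 tested genes with PAC and no STRE, 0.47 for the 1012 with STRE and no PAC, 0.18 for the 226 with both and 0.03 for the 3593 with neither. The general stress list was drawn up for control by Msn2 and Msn4, so its STRE share is not an independent result. A match is a description, not a binding site.

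The nearest match before the start codon is printed here for 4 ribosome biogenesis genes that fell and 3 stress or reserve genes that rose, in R64 coordinates, read 5′ to 3′ on the gene's own strand with the motif or its complement in capitals.
RRS1 (chrXV:868215-868238, plus strand, 116 bases before the start codon): aagtgatgaGATGAGcctttaaca
RPF2 (chrXI:592583-592606, minus strand, 57 bases before): tggtatatcGATGAGttgtattga
NOP1 (chrIV:427151-427174, plus strand, 204 bases before): attggaaagCTCATCtctcttgaa
NSR1 (chrVII:807829-807852, minus strand, 187 bases before): caagggcagCTCATCgcaagaacg
PGM2 (chrXIII:477808-477831, minus strand, 216 bases before): ggaacaaacAGGGGttgaaaagtg
HSP12 (chrVI:107057-107080, plus strand, 190 bases before): ccggtcgtcCCCCTcttgatctga
GSY1 (chrVI:176709-176732, minus strand, 332 bases before): caagtaataCCCCTtggaggattt
The first 4 capitals are PAC, forward in *RRS1* and *RPF2* and reversed in *NOP1* and *NSR1*, whose log2 fold changes were -3.66, -3.23, -3.59 and -3.28. The last 3 are STRE, in genes with log2 fold changes of 4.79, 3.42 and 5.69. In *GSY1* the match lies beyond the 250-base window and was found in a search of 500 bases.

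Elements of glucose repression were rarer. The Mig1 core (GCGGGG) occurred in 2.51% of all windows, 5.47% of those of genes at least 2-fold higher and 2.08% of those at least 2-fold lower. The core of the carbon source response element bound by Cat8 occurred in 10.3%, 15.1% and 10.7%. Its nearest match is shown for 4 genes of acetate use, gluconeogenesis and respiratory growth, with the whole core in capitals.
ACS1 (chrI:45226-45249, minus strand, 221 bases before): ttgccgCCGAGCCTCCGatgccat
RGI2 (chrIX:248720-248743, minus strand, 341 bases before): gttttgCGGCTATACGGctgaagg
ADY2 (chrIII:133440-133463, minus strand, 333 bases before): gatttgCGGTTGGGCGGctatttc
FBP1 (chrXII:875207-875230, minus strand, 432 bases before): gtcgtgCGGACACCCGGagttatg
In *RGI2*, *ADY2* and *FBP1* the match lies beyond the 250-base window of these percentages and came from the search of 500 bases. These 4 genes differed widely, with log2 fold changes of 4.59, 6.98, 5.57 and 1.35. The CCAAT box of the Hap complex showed no such separation, in 43.2%, 42.7% and 40.4% of windows. The core of the proteasome element PACE (GGTGGC) was found in 32 of 38 (84.2%) proteasome genes against 6.91% of all windows, in a list whose median log2 fold change was -0.02.

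**Figure D5:**
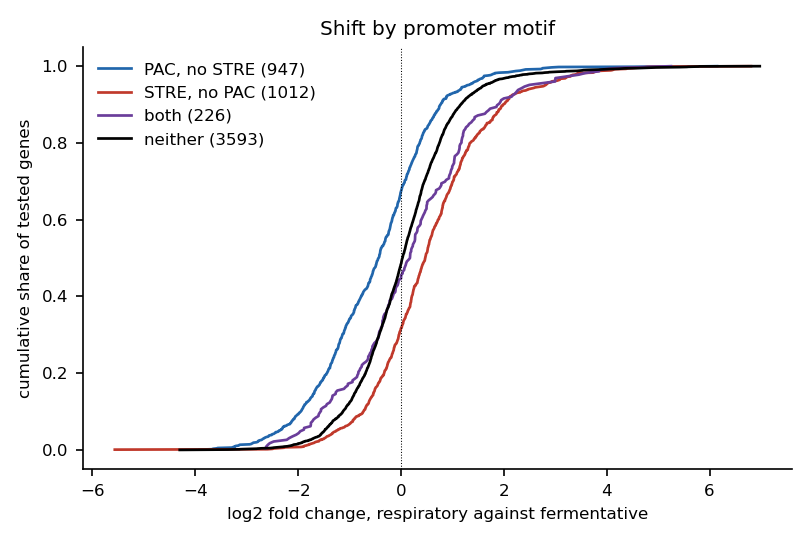
Cumulative share of tested genes by log2 fold change, for genes whose window holds PAC without STRE, STRE without PAC, both or neither. The curve for PAC alone lies to the left and the curve for STRE alone to the right, with medians of -0.44 and 0.47, and the curve for neither crosses its middle at 0.03.

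Cell wall genes, of interest because *MRN1* encodes an RNA-binding protein that acts on cell wall transcripts, fell in 25 of 57 cases (43.9%, against 36.4% of all genes) and rose in 12, with a median of -0.15. Their share of counts did not separate the stages (exact two-sided permutation p = 0.4). *EXG1*, the main exo-1,3-beta-glucanase, measured 265, 264 and 231 CPM before and 46.4, 54.4 and 51.9 CPM after the shift (-2.31), and the aspartyl protease *MKC7* (-2.11), the transglycosidase *UTR2* (-1.80) and the glucanosyltransferase *GAS1* (-1.20) fell. *SED1* (1.53) and *CWP1* (1.5), which encode wall mannoproteins, rose. *MRN1* itself fell slightly, from 99.1, 136 and 126 CPM to 85.5, 87.7 and 86.0 CPM (log2 fold change -0.48, standard error 0.11, adjusted p = 0.00371 in edgeR's test). Of the SUN family of wall and mitochondrial proteins, *NCA3* fell most, from 49.9, 55.3 and 51.7 CPM to 26.4, 25.8 and 22.8 CPM (-1.07). *SIM1* (-0.59) and *SUN4* (-0.58) fell by less, with *SIM1* overlapping between stages at 282, 468 and 346 CPM and 219.8, 291 and 218 CPM. *SIM1* missed the threshold without fermentative replicate 2 or respiratory replicate 1 or 3 (adjusted p of 0.0642 to 0.0786 in edgeR's test). *UTH1* did not pass, at 1041, 1325 and 1012 CPM and 948, 1292 and 868 CPM.

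Factors of mRNA decay and RNA granules went both ways, 16 higher (31.4%) and 25 lower (49%) of 51, against 38.6% and 36.4% of all genes. The Lsm ring, which binds the ends of deadenylated mRNAs, was lower for *LSM1* to *LSM7*, from -0.48 for *LSM7* to -1.0 for *LSM6*, and the decapping subunit *DCP1* fell (-1.40) while the catalytic subunit *DCP2* did not pass (0.03). *DHH1* (0.62), a helicase of decay granules, and *PUF3* (0.76), which binds mRNAs of mitochondrial proteins, rose. *VTS1* (-2.05) and *NRP1* (-2.20), both RNA-binding proteins, had the most negative values of the list.

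The same shift in mrn1D cells, from 6 libraries that are not part of the wild-type comparison, gave values side by side with those of wild-type. Of the 4343 genes called in wild-type and tested in mrn1D, 35 had the opposite sign there. The difference between the genotypes in the size of the shift was tested by an interaction term, for which all 12 libraries were fitted together. It was called for 188 of 5828 genes (3.23%), of which 123 had a more positive and 65 a more negative change in wild-type, and in 177 of the 188 the wild-type change was the smaller in size. Leaving out 1 library at a time gave 50 to 346 and 26 to 155 such genes, with the highest counts without wild-type fermentative replicate 2 and the lowest without an mrn1D library. DESeq2 gave 317 and 114, and with library totals in place of TMM scaling the balance turned to 60 more positive and 100 more negative. Ribosome biogenesis held 50 of the calls among its 159 genes (31.4%), all with a smaller fall in wild-type, and its median was -1.75 in wild-type and -2.18 in mrn1D. Leaving out any 1 of the 12 libraries gave between 20 and 73 such calls, none of them of a larger fall in wild-type. Of the 5 genes with the largest interaction, *STL1* rose by 1.3 in wild-type and 3.48 in mrn1D, *JEN1* by 5.43 and 6.73, *FMP16*, a mitochondrial protein induced by stress, by 3.32 and 4.81, and *ALD3*, a stress-induced aldehyde dehydrogenase that shares reads with *ALD2*, by 3.09 and 4.38. The other, *YBR219C*, has no assigned function, shares reads with a similar gene and measured 1.01, 1.19 and 1.41 CPM before and 0.137, 0.262 and 0.124 CPM after the shift in wild-type, close to the 3-count floor.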

How the data were processed

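Total RNA was depleted of ribosomal RNA and sequenced as single-end libraries. The submitters' processing notes name kallisto 0.44.0 and the genome build R64. The deposited files hold, per coding sequence, estimated counts and TPM (a length-adjusted share of the library) as the authors' kallisto run gave them. The strand setting is not given in the sources used here. Counts that are not whole in any wild-type library marked 594 coding sequences as sharing reads with another, and estimated counts were rounded before testing. The mark can miss the partner of a marked gene, so the number that share reads may be larger. Numbers of genes in a list that share reads are of marked genes. Gene names came from RefSeq R64, which matched 5911 of 5917 identifiers.

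Groups followed the genotype and stage labels. The 6 wild-type libraries were fitted alone with edgeR 4.0.16 in R 4.3.3, by the robust quasi-likelihood test with TMM scaling and edgeR's own filter on low counts, and p-values were adjusted over all genes tested. The interaction was fitted over all 12 libraries. The steps were checked on simulated counts in which few genes changed, as many up as down. That check does not cover a shift in which most genes change. Alternatives were DESeq2 1.42.0, other scalings and filters, a fit of all 12 libraries, a block for the replicate number, leave-one-out fits, and lists without genes marked as sharing reads. Members and gene lists were chosen with earlier results of these data known. Genes named are the 10 with the largest and the 10 with the most negative change among called genes that do not overlap and average at least 10 CPM, members of 46 lists by role, including up to 4 against the main direction, the SUN genes and *MRN1*, and the 5 with the largest interaction. List counts are read against all genes tested, and lists share some members. Cultures were described as triplicates of each strain, and where a library's origin from its own culture is not stated, p-values measure only the spread between libraries.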

Additional observations from a re-analysis of the deposited data

Results flagged for a closer look

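The change from fermentation to respiration differed between wild-type and mrn1D in 188 genes, by edgeR's test of the difference itself. Values here are the wild-type log2 fold change minus that of mrn1D, at an adjusted p under 0.05. Among genes named in the text, those that rose less in wild-type were genes of carbon entry and fatty acid oxidation, *STL1* (-2.19), *JEN1* (-1.31), *CYB2* (-1.04), *POX1* (-0.90), *POT1* (-0.88), *FOX2* (-0.83) and *PXA2* (-0.66), the cytochrome c isoform *CYC7* (-1.19), the stress genes *FMP16* (-1.51) and *ALD3* (-1.32), the trehalases *ATH1* (-0.42) and *NTH2* (-0.35), *DBP1* (-0.59), *GDH2* (-0.67) and *PFK26* (-0.39). *HXT4* rose more in wild-type (0.91), at 4.76 against 3.83. Those that fell less in wild-type were *MAE1* (1.06), *ALD5* (0.88), *NCA3* (0.75), *PHO84* (0.73), *UTR2* (0.62), *RPF2* (0.59), *ELO3* (0.52), *STD1* (0.51), *YEF3* (0.51), *ERG25* (0.50) and *MKC7* (0.42). *COX8* was not called in wild-type at 0.20 and measured 0.85 in mrn1D (-0.67). *YBR219C*, at or under 1.41 CPM in wild-type, had the largest difference (-2.91).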

How the results depend on the processing

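No count of the wild-type shift moved by more than 1.5 times. Between 3997 and 4594 genes were called, the share of calls that were higher lay between 49.4% and 53.9%, and other scalings moved the median of all genes by at most 0.05 on the log2 scale. Of the 4350 called genes, 3983 or more were called with the same sign under each alternative.

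The interaction depended on the settings. Against 123 genes with a more positive and 65 with a more negative change in wild-type, DESeq2 called 317 and 114, library totals without scaling, chosen after seeing the data, 60 and 100, and leaving out 1 library 50 to 346 and 26 to 155. The fit with the replicate block called 260 and 155. Deviations of same-numbered wild-type libraries correlated at 0.204, 0.174 and 0.085, each library best with its own number in 3 of 3 cases, but the labels give the number no meaning, so it did not serve as a pairing. With the replicate block the wild-type shift had 2328 genes higher and 2199 lower.

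Without genes marked as sharing reads, the median of the fermentation list, with 1 of 10 genes marked, turned from -0.13 to 0.045. That of the hexose transporters, of which 3 genes were left, was 0.20 in place of 1.34. The mark can miss the partner of a marked gene, so such lists can still hold genes that share reads. The other medians that moved were 3.23 for hexose kinases, 2.80 for beta-oxidation, 1.96 for ethanol and acetate, 1.81 for galactose, sucrose and maltose, 0.94 for gluconeogenesis, 0.90 for glucose sensing, -0.13 for heat shock, -1.28 for all and -1.13 for small ribosomal proteins. By scaling, the autophagy median was 0.98 (upper-quartile), 1.05 (library totals) and 0.97 (DESeq2), and the sulfate median -1.33 (library totals). The cause was not tested beyond the genes and factors removed. Promoter motif shares depended on the window. With 500 bases before the start codon, shares are given for all windows, genes at least 2-fold lower and genes at least 2-fold higher. PAC occurred in 28.4%, 48.3% and 19.7%, and STRE in 34.1%, 23.2% and 58.2%, the same order as with the shorter window. The core bound by Cat8 occurred in 20.9%, 19.4% and 30.3%, with lower genes then below all windows.

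No named gene reversed. Calls lost when 1 library was left out stand beside their genes in the text. Among genes below the threshold, *ENO2*, *FBA1*, *TPI1*, *PDC1*, *TDH2*, *GCN4*, *MSN2*, *SFC1*, *SFP1* and *FHL1* passed it without 1 library. DESeq2 also called *ENO2*, *FBA1*, *PDC1*, *TDH2*, *FHL1* and *PDA1*, other scalings or filters called *PDC1*, *TDH2*, *SFP1* and *FHL1*, and *RPL4B* passed in the fit of all 12 libraries and with the replicate block. With 3 libraries a stage, genes near the threshold depend on these choices.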

Other observations

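Other gene groups are read against the 38.6% of all genes that rose and the 36.4% that fell. Of 31 genes of cyclins and cell cycle control, 16 rose and 7 fell, in all about the share called over all genes. *WHI5*, the repressor of G1 transcription, rose by 1.13 and *SIC1*, the inhibitor of B-type cyclin kinase, by 0.97. The mitotic cyclins *CLB1* (-0.72) and *CLB2* (-0.79) and the anaphase activator *CDC20* (-0.64) fell, and the G1 cyclin *CLN2* fell (-0.60) while *CLN3* rose (0.63), though not past the threshold without fermentative replicate 3 or any of the respiratory replicates (edgeR's adjusted p of 0.0517 to 0.0926). *PCL8* (1.95) and *PCL10* (1.14), cyclins that direct the kinase Pho85 to glycogen synthase, rose. Of 11 histone genes, 8 of which share reads, 7 fell and none rose, with *HHF2*, a histone H4 gene, the lowest (-0.81). Of 12 daughter-specific genes 4 rose and 5 fell, again the share called over all genes. The repressor *ASH1* was the highest (0.89), and *DSE4*, a daughter cell glucanase, the lowest (-1.25).

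In iron and copper uptake 6 of 32 genes rose and 11 fell, fewer calls than over all genes. The high-affinity iron permease *FTR1* (-1.54), its partner oxidase *FET3* (-0.69) and the reductase *FRE1* (-1.59) fell, while *ISU1*, the scaffold of iron-sulfur cluster assembly, rose by 1.72 as its paralog *ISU2* fell (-1.08). Phosphate and polyphosphate genes split evenly, 13 higher and 13 lower of 30. The phosphate transporters moved in opposite directions. The proton-coupled *PHO84* measured 571, 485 and 481 CPM before and 122, 95.5 and 110.5 CPM after the shift, and the sodium-coupled *PHO89* measured 40.1, 30.8 and 39.1 CPM and 254, 224 and 270.2 CPM. *PHM7* had the largest rise of that list (5.24). Of 7 markers of mating type a, 5 fell and none rose, with *STE2* at -0.87 and the a-factor gene *MFA2* at -1.0. Of 12 sporulation genes 6 rose and 1 fell, among them the meiotic regulators *IME1* (0.81), at 4.08, 7.17 and 5.27 CPM before and 8.75, 10.9 and 9.22 CPM after the shift, and *IME2* (1.48).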
